A study of Solanum tuberosum with 9 samples.

Results

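Among the messenger RNAs of stored potato tubers (Solanum tuberosum, cultivar Keshan), 140 gene models stood lower after 40 days of storage whether or not the tubers had been exposed to vapour of rosemary essential oil, REO for short. They were chosen from the measured values. A model was taken when the lowest of the 3 day 0 libraries was at least 1.5 times the highest of the 6 day 40 libraries and its day 0 mean was at least 5 CPM (counts scaled to the column total of the library). The 140 models were 1.05% of the 13387 reference gene models that reached this level at day 0, out of 34239 models in the table. The mirror rule, with every day 40 library at least 1.5 times above day 0, took 74 models. The fall between day 0 and day 40 is therefore given as a description, and no test of it is read as support.

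There were 9 libraries, 3 each of untreated tubers at day 0, untreated tubers at day 40 (the control tubers) and tubers fumigated with REO and sampled at day 40. The tubers were bought as mature tubers and kept sealed at a set temperature and humidity, having been divided between control and REO at its start. How many tubers stand behind a library was not given in the sources used here. The spread between libraries may be that of tubers or of pools. Whole tuber tissue was sequenced, and fewer cells of a type and less RNA per cell cannot be told apart.

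After harvest a potato tuber lives on its reserves. It passes through dormancy, in which its buds do not grow, and then sprouts, while starch and storage proteins laid down during bulking are drawn upon. Vapours of plant essential oils are used in stores to delay that sprouting. Gene names are not paired with identifiers in the files and no identifier (0) was found in the reference gene table, so no function is given to any model here, no sequence is shown, and markers of tuber tissue could not be looked up. Gene models are called by their identifiers, whose number after the prefix is the chromosome.

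Library totals lay between 29330673 and 36901701 counts, and a floor of 3 counts was worth 0.0813 to 0.102 CPM. Control day 40 replicate 2 stood apart over the whole table, with 26805 models detected against 23747 to 25195 in the other 8 libraries. With group means removed, the deviations of control day 40 replicate 2 correlated across all tested models with those of REO replicate 3 at r = 0.61, and those of control day 40 replicate 3 with REO replicate 3 at r = -0.56. Genes are not independent replicates, and these values are descriptions of the libraries.

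The 140 models held a large share of the tuber messenger RNA at day 0 and a small one at day 40. They took 4.86%, 4.53% and 5.86% of all counts in day 0 replicates 1, 2 and 3. In control tubers at day 40 they took 1.10%, 1.21% and 1.33%, and with REO 0.974%, 1.26% and 1.68%. All 6 day 40 shares lay under all 3 day 0 shares, which the rule fixes, and the REO and control shares overlapped. The 34 models with a day 0 mean of at least 100 CPM carried 93.9% of the summed level. They were 24.3% of the 140, whereas 13.4% of the 13387 models at this level of expression reached 100 CPM.

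The depth of the fall differed between models. In control tubers at day 40 the median model was left with 23.6% of its day 0 mean (quartiles 16.3% and 32.1%, range 1.22% to 56.5%). With REO the median was 20.4% (quartiles 13.9% and 31.9%, range 0.832% to 57.4%). Less than 10% was left in 17 models in control tubers and in 17 with REO, and less than 5% in 6 and 7. Measured as the highest day 40 library against the lowest day 0 library, 14 models kept 10 to 25%, 55 kept 25 to 50%, and 71 kept at least 50%.

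By the measure of the rule, the lowest day 0 library over the highest day 40 library, 2 models fell deepest. Soltu.DM.02G022040 stood at 10.4, 15.2 and 14.3 CPM in day 0 replicates 1, 2 and 3. It was at 0.406, 1.11 and 0.768 CPM in control tubers at day 40 and at 0.0341, 0.112 and 0.185 CPM with REO. Its lowest day 0 library was 9.37 times its highest day 40 library, and the REO libraries lay under the control libraries of the same day. Soltu.DM.10G022600 stood at 23.8, 19.7 and 25.7 CPM at day 0, at 1.27, 1.28 and 2.79 CPM in control tubers at day 40 and at 1.64, 0.646 and 1.33 CPM with REO. Its day 0 libraries were at least 7.06 times any later one, and its REO and control values overlapped. By the mean left in control tubers, 5.73% and 7.72% in this pair, other models had less left. Among them were Soltu.DM.02G014010 with 1.22% and Soltu.DM.09G024720 with 1.36% of day 0, both picked after their values were seen. Soltu.DM.09G024720 was at 2.34, 1.47 and 102 CPM in day 0 replicates 1, 2 and 3, so its day 0 mean rested on replicate 3. Its highest day 40 library was at 60.8% of its lowest day 0 library.

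At the other end of the rule stood models that barely met it. The pair just inside was Soltu.DM.08G023820, with a lowest day 0 value of 63.2 CPM and a highest day 40 value of 42.1 CPM, and Soltu.DM.11G011150, with 21.5 and 14.3 CPM. Just outside were Soltu.DM.05G026750, at 5.95 against 3.99 CPM, and Soltu.DM.05G008540, at 101 against 67.8 CPM. There were 21 models between 1.5 and 1.6 times and 33 between 1.4 and 1.5 times, so the limit cuts a continuous range.

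In the fit across all models, each of the 140 passed the filter on low counts. Control day 40 against day 0 called 53 of them lower and 0 higher, where 0.57% of all 22638 tested models were called lower and 0.274% higher (edgeR quasi-likelihood test, adjusted p under 0.05). REO day 40 against day 0 called 68 lower and 0 higher, where 1.22% of all were called lower and 1.39% higher. The median fitted change of the 140 models was a log2 change of -2.21 without REO and of -2.37 under REO, against 0.04 and 0.00 over all tested models. Both comparisons use the same day 0 libraries, and the rule used both contrasts, so nothing is read from these counts. They also changed with the libraries kept. The 53 became 0 without day 0 replicate 1 or 3, or without REO replicate 2, which is no part of that contrast. In these fits 133, 127 and 139 of the 140 still had an unadjusted edgeR p under 0.05. The models called lower over the whole table fell there from 129 to 2, 0 and 0. The 53 became 2 or 8 when control day 40 replicate 1 or 3 was left out, and 17 without day 0 replicate 2. They became 22 or 25 with REO replicate 1 or 3 left out, and 70 without control day 40 replicate 2. The 68 fell to 26, 40 and 32 when day 0 replicates 1, 2 and 3 were dropped in turn, and to 20, 15 and 41 when those of REO were. Without control day 40 replicates 1, 2 and 3 they were 67, 91 and 78. DESeq2 called 112 and 115 lower, where it called 3.7% and 4.7% of all models it tested. At an unadjusted p under 0.05 in edgeR, 135 and 138 of the 140 were lower, beside 9.34% and 10.2% of all.

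**Figure D1:**
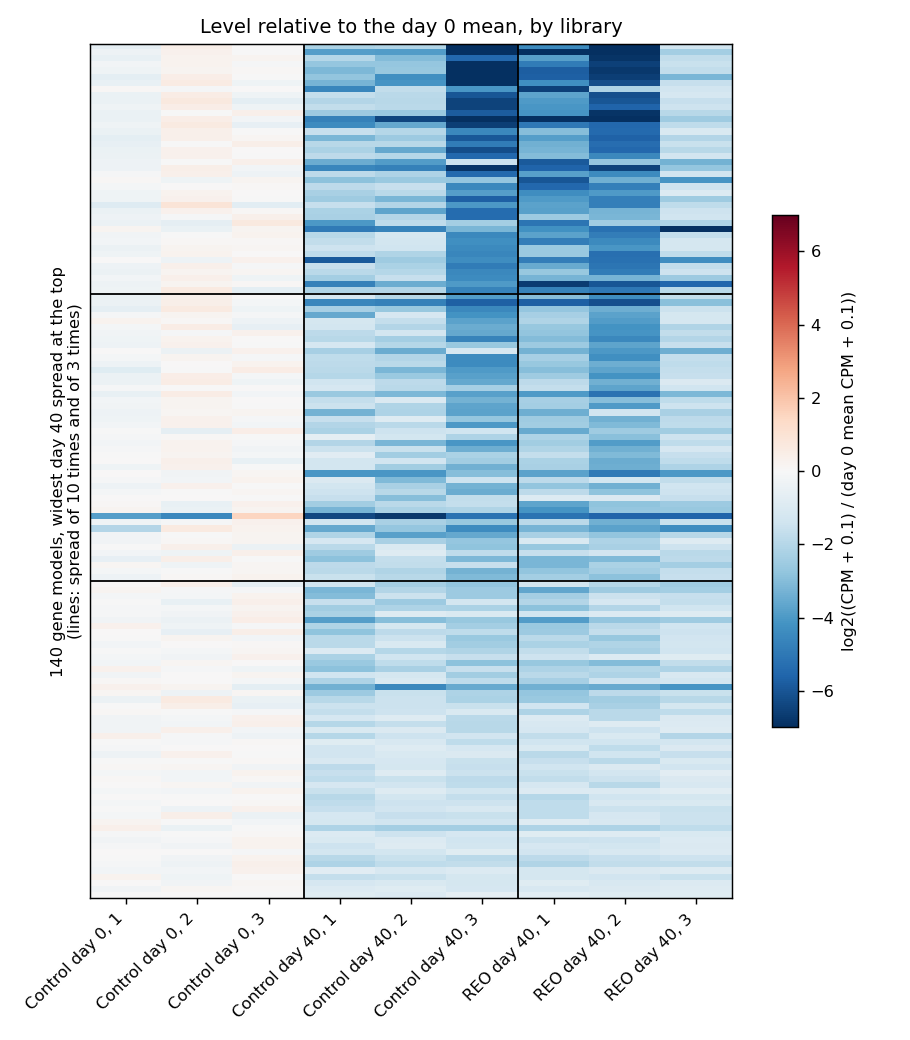
Level of each of the 140 models (rows, widest spread at day 40 at the top) in each of the 9 libraries (columns), as log2 of CPM over the day 0 mean with 0.1 CPM added to both; horizontal lines mark spreads of 10 and 3 times. In the upper block of 41 models the darkest columns are control day 40 replicate 3 and REO replicates 1 and 2, while the lower block of 52 models is paler and more even across the 6 day 40 libraries.

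The rule held both day 40 groups under day 0 and so left out any model that stayed high under either treatment. The comparison of REO with control tubers at day 40 uses those same values, and its counts describe the 140 models without showing whether REO acts on models that fall in storage. None (0) of the 140 was called higher and none (0) lower with REO than in control tubers of the same day, where 0.424% of all tested models were called higher and 0.0353% lower (edgeR quasi-likelihood test, adjusted p under 0.05). At an unadjusted p under 0.05 in edgeR, 3 models (2.14%) were higher and 7 (5%) lower, beside 4.29% and 3.51% of all tested models. DESeq2 called 1 higher and 1 lower, beside 1.67% and 0.55% of all models it tested, and gave no p for 5 of the 140. Every edgeR and limma alternative that was run, those leaving out a library included, called 0 and 0. The median log2 difference was 0.03 over the 140 models (quartiles -0.28 and 0.28) and -0.05 over all tested models. This median was -0.03 with scaling to library size alone, so it has no settled sign, and it became -0.45 without REO replicate 3, while leaving out another day 40 library gave -0.16 to 0.22. The standard error of a single difference had a median of 0.48 on the log2 scale, with a highest value of 1.65, so that differences of this size could not be told from 0 in many models. A difference under 1 on the log2 scale was fitted for 129 of the 140.

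**Figure D2:**
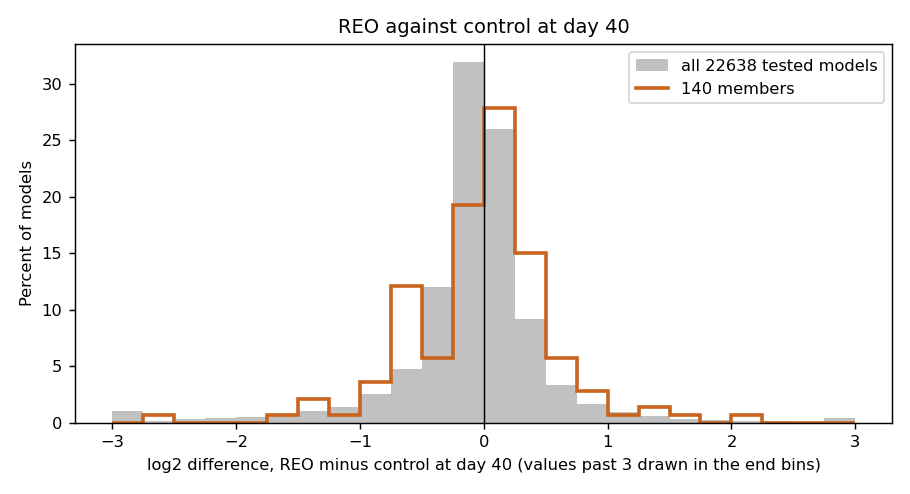
Distribution of the log2 difference between REO and control tubers at day 40 for all 22638 tested models (grey) and for the 140 models (orange line), as the percent of each set per bin of 0.25. The orange line is centred near 0 as the grey one is, with medians of 0.03 and -0.05.

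The models with the lowest edgeR p in each direction were the following, and none passed at an edgeR adjusted p under 0.05. Soltu.DM.04G027270 stood at 4723, 4906 and 7086 CPM at day 0, at 1409, 1761 and 1426 CPM in control tubers at day 40 and at 2568, 2928 and 2837 CPM with REO. All REO libraries lay above all control libraries of day 40 and under all those of day 0. Its difference between REO and control was 0.92 ± 0.25 (SE) on the log2 scale, with an edgeR adjusted p of 0.242 and a DESeq2 adjusted p of 0.0047. Over 19 alternatives the adjusted p (edgeR, limma or DESeq2) of this model ran from 0.0047 to 0.775, and only that of DESeq2 passed. Soltu.DM.05G009260 was at 112, 105 and 156 CPM at day 0, at 27.3, 48.0 and 40.0 CPM in control tubers and at 45.1, 63.5 and 68.8 CPM with REO. Its groups at day 40 overlapped, and its difference was 0.69 ± 0.27 on the log2 scale (edgeR adjusted p = 0.538).

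In the other direction, Soltu.DM.02G022040, described above for its fall, had a difference of -2.66 ± 0.51 on the log2 scale (edgeR adjusted p = 0.0794, DESeq2 adjusted p = 0.000923). The alternatives gave this model adjusted p values (edgeR, limma or DESeq2) of 0.000923 to 0.394, and here too DESeq2 alone passed. Its difference lay between -3.17 without REO replicate 3 and -2.03 in all of them but limma on log2(FPKM + 1), where it was -0.60. Its REO values rested on very few counts. Soltu.DM.06G011360 was at 15.3, 11.6 and 15.4 CPM at day 0, at 3.90, 4.23 and 4.48 CPM in control tubers at day 40 and at 1.43, 3.01 and 2.60 CPM with REO. The REO libraries lay under the control libraries, with a difference of -0.78 ± 0.28 (edgeR adjusted p = 0.461). Over the whole set, all 3 REO libraries lay above all 3 control libraries in 2 models (1.43%) and under them in 7 (5%). Among the 13387 models at the same day 0 level these shares were 5.87% and 11.6%, but the rule removed models that stayed high under either treatment, so nothing is read from the gap.

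Libraries of the same treatment differed widely at day 40. The median coefficient of variation of the 140 models was 21.5% at day 0, 56.8% in control tubers at day 40 and 46.7% with REO. For the 13387 models it was 17.4%, 17.1% and 11.2%. The highest of the 6 day 40 libraries was a median of 4.38 times the lowest, against 1.54 times for the 13387. This spread was at least 10 times in 41 of the 140 (29.3%) and in 2.23% of the 13387, and under 3 times in 52 (37.1%) and in 90.0%. The 13387 share the day 0 level of the rule, while the 140 stand lower at day 40 by the rule. Models of a like day 40 level were not compared. Values under the floor were set to the floor, which happened in 12 of the 140 and makes their spreads lower bounds.

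The order of the day 40 libraries did not follow the treatment. The median model was left with 26.7%, 26.1% and 13.6% of its day 0 mean in control replicates 1, 2 and 3, and with 16.2%, 11.4% and 32.5% in REO replicates 1, 2 and 3. REO replicate 3 was the highest of the 6 libraries in 65 models (46.4%) and the lowest in 3. Control replicate 3 was the lowest in 46 (32.9%), REO replicate 2 in 38 (27.1%) and REO replicate 1 in 28 (20%). Among the 13387 models, REO replicate 3 was the highest in 11.2% and the lowest in 12.5%. Control replicate 3 was the lowest in 13.9% of them, REO replicate 2 in 11.2% and REO replicate 1 in 24.4%, a larger share than among the 140. The 3 highest libraries were control replicates 1 and 2 with REO replicate 3 in 65 of the 140, out of 20 possible sets of 3. That set was the most frequent, was singled out after the values were seen, and held 8.12% of the 13387.

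**Figure D3:**
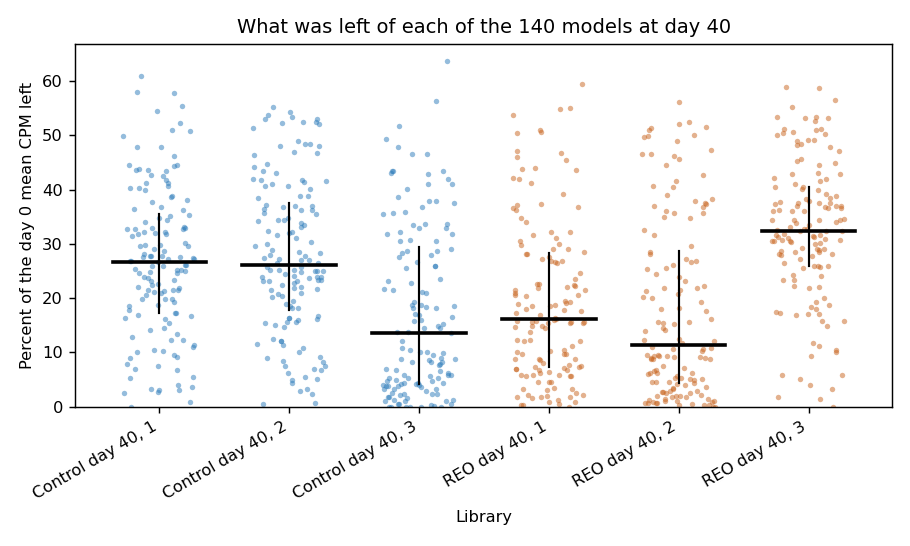
Percent of the day 0 mean CPM left in each day 40 library (points, 1 per model; thick bar, median; thin bar, quartiles; blue, control; orange, REO). The medians are 26.7%, 26.1% and 13.6% in the control libraries and 16.2%, 11.4% and 32.5% in the REO libraries, so each treatment has high and low libraries.

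Classes cut on the spread itself show how this order looked at each width, and the cut fixes how far the libraries of a class lie apart. In the 41 models with a spread of at least 10 times, the median left was 20.9%, 21.8% and 2.31% in control replicates 1, 2 and 3 and 5.64%, 1.95% and 30.3% in REO replicates 1, 2 and 3, and 32 of them had that set of 3 highest libraries. In the 47 models with a spread of 3 to 10 times the medians were 27.7%, 23.6% and 8.98% in control tubers and 17.5%, 9.38% and 30.5% with REO, and 23 of them had it. In the 52 models with a spread under 3 times the medians were 31.8%, 37.1% and 31.4% in control tubers and 29.9%, 35.3% and 40.3% with REO, and 10 of them had it. The wide class had a median day 0 mean of 24.96 CPM and the narrow class 34.6 CPM. The pattern was not confined to the 140: of 257 other models at the day 0 level with a spread of at least 10 times, 87 (33.9%) had the same set. In 48 of these 87 the day 0 mean was above every day 40 library, although the rule was not met.

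A single component held 75.3% of the variance of the 140 models over the 6 day 40 libraries, on log2(CPM + 0.5) centred per model. Its loadings were 0.50 for REO replicate 3, 0.35 and 0.29 for control replicates 1 and 2, -0.12 and -0.49 for REO replicates 1 and 2 and -0.54 for control replicate 3. The first component of the other models at this level held 56.4% and was led by control day 40 replicate 2, with a loading of 0.81, where the next in size were -0.32 for control replicate 3 and for REO replicate 1. What sets the day 40 libraries apart in these models was not tested.

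Some members lay beside each other on the chromosomes. With the 32819 chromosome-numbered models in order of identifier, 23 of the 140 (16.4%) had another member in the next place, as had 2 of the 74 models of the mirror rule (2.70%), a smaller set in which neighbours are fewer by number alone. Within 10 places the numbers were 36 (25.7%) and 14 (18.9%). The longest chain held 9 members, and no chain of the mirror rule held more than 2. Neighbouring models can be near-identical copies, and the way their reads were shared out was not given in the sources used here. Counts within a stretch are uncertain model by model. Chromosome 3 held 22 members (15.7%, against 10.5% of the 13387), chromosome 2 held 20 (14.3% against 9.99%), chromosome 6 held 16 (11.4% against 8.84%), chromosome 1 held 10 (7.14% against 13.01%) and chromosome 11 held 4 (2.86% against 6.88%). These shares count neighbours singly: on chromosome 3, 9 members lay in a stretch and 3 in another, and on chromosome 2, 6 lay in a run.

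The stretch on chromosome 3 from Soltu.DM.03G018450 to Soltu.DM.03G018670 held 9 members among 18 models and 63.1% of the summed day 0 level of the 140. Its members summed to 31387, 28049 and 36719 CPM at day 0, to 6275, 7766 and 8261 CPM in control tubers at day 40 and to 5183, 8049 and 10881 CPM with REO. The sums left were 23.2% and 25.1% of day 0, and the 2 treatments overlapped. Of the 9 other models in the stretch, 1 reached 5 CPM at day 0, and none exceeded 14.2 CPM in any library. In 7 of the 9 the spread over the day 40 libraries was under 5 times, and in the other two it was 14.7 and 20.7 times. The latter model, Soltu.DM.03G018450, was at 3039, 3755 and 4904 CPM at day 0, at 347, 263 and 1393 CPM in control tubers at day 40 and at 67.2, 592 and 393 CPM with REO.

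The members with the highest day 0 counts lay in that stretch. Soltu.DM.03G018650 had 10651, 10568 and 13185 CPM at day 0, 2120, 2568 and 2490 CPM in control tubers at day 40 and 1585, 2731 and 4293 CPM with REO. Soltu.DM.03G018580 had 10558, 8787 and 10556 CPM at day 0, 2950, 3366 and 2784 CPM in control tubers and 2995, 3565 and 4893 CPM with REO. In the former the REO libraries spanned the control libraries and in the latter they overlapped them, with differences of 0.31 ± 0.34 and 0.39 ± 0.24 on the log2 scale that did not pass (edgeR adjusted p = 0.971 and 0.833). The pair carried 42.2% of the summed day 0 level of the 140. Per length, in the deposited FPKM values, they ranked 1 and 2 of all reference models at day 0, at 23216 and 10546 FPKM, and were at 4911 and 3251 FPKM in control tubers at day 40 and 5829 and 4052 FPKM with REO. Of 63 reference models with at least 1000 FPKM at day 0, 9 were members. Most of these 9 lay in that same stretch, where counts are uncertain model by model.

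**Figure D4:**
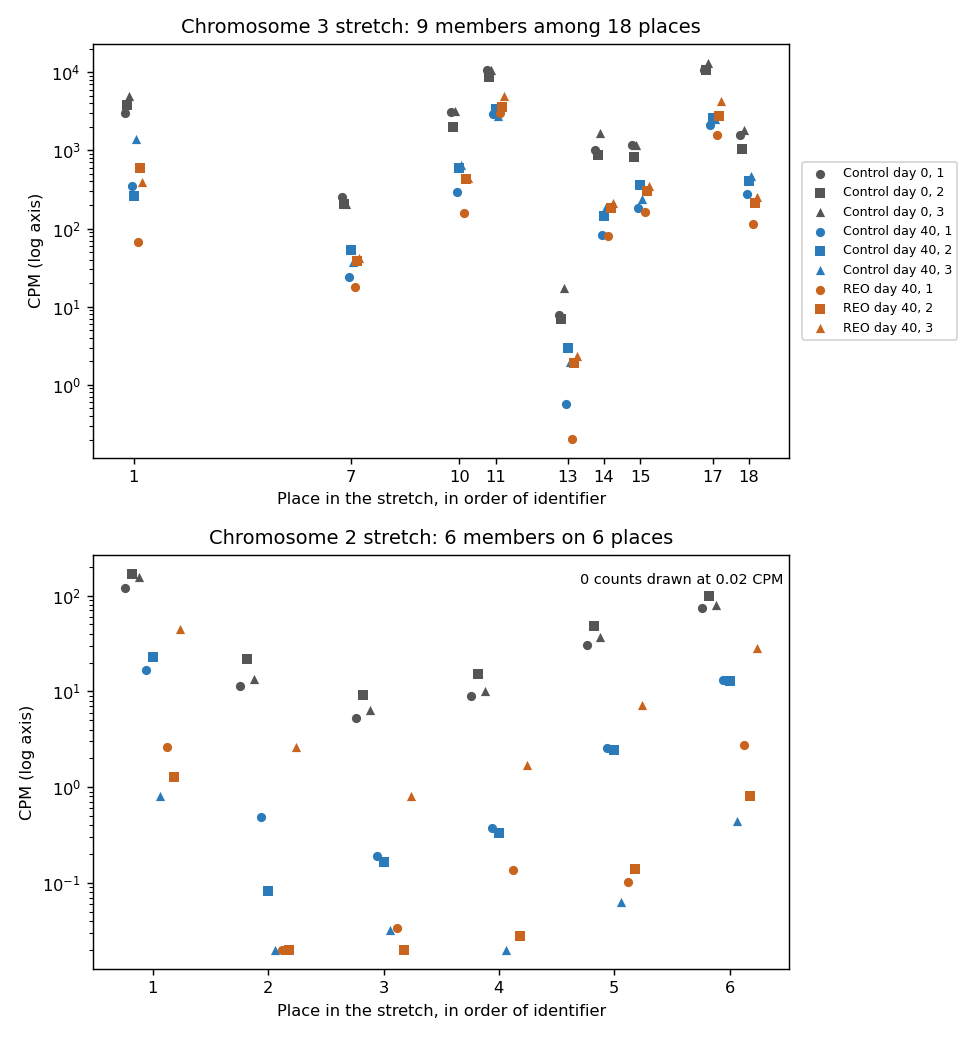
CPM (log axis) of the members in the chromosome 3 stretch (top) and the chromosome 2 stretch (bottom), by place in order of identifier; grey, control day 0; blue, control day 40; orange, REO day 40; circles, squares and triangles, replicates 1, 2 and 3. On chromosome 2 the orange triangle (REO replicate 3) is the highest day 40 point at every place and control replicate 3 and REO replicates 1 and 2 are near the bottom, whereas on chromosome 3 most day 40 points lie close together.

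On chromosome 2 a run of 6 members filled 6 places in a row, from Soltu.DM.02G014000 to Soltu.DM.02G014050. They summed to 252, 362 and 302 CPM at day 0, to 33.5, 38.8 and 1.34 CPM in control tubers at day 40 and to 5.69, 2.25 and 86.4 CPM with REO. Soltu.DM.02G014000 was at 121, 168 and 155 CPM at day 0, at 16.9, 23.1 and 0.80 CPM in control tubers and at 2.66, 1.26 and 45.3 CPM with REO. Soltu.DM.02G014050, at the other end of the run, was at 74.9, 99.9 and 80.0 CPM, then at 13.03, 12.8 and 0.448 CPM and at 2.76, 0.815 and 28.7 CPM. In both models each treatment held libraries from under 1.5 CPM up to over 10 CPM, and the groups overlapped fully. Their differences between REO and control were 0.33 ± 1.24 and 0.34 ± 1.19 on the log2 scale (edgeR adjusted p of 1 for each). The fall of either model against day 0 was not called (edgeR adjusted p = 0.213 and 0.212 without REO, 0.236 and 0.237 with it). Every day 40 library lay under every day 0 library, which the rule fixes for each member.

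A shorter group on chromosome 3, 3 members within 5 places beginning at Soltu.DM.03G000820, had its highest sums in the same 3 day 40 libraries. This model, picked after its values were seen, was at 383, 432 and 441 CPM at day 0, at 116, 135 and 17.9 CPM in control tubers at day 40 and at 9.17, 15.1 and 152 CPM with REO. Its highest day 40 library was 16.5 times its lowest.

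The models were also shorter than others. The length scale read from the ratio of count to FPKM had a median of 1238 bases for the 140 (quartiles 1027 and 1750) and 1866 bases for the 13387 (quartiles 1264 and 2595). It was 1149 bases in the class of wide spread and 1598 bases in the class of narrow spread. On the FPKM scale the median level was 26.4 FPKM at day 0, 5.84 FPKM in control tubers at day 40 and 5.58 FPKM with REO, against 13.3, 14.3 and 13.4 FPKM for the 13387.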

How the data were processed

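Per gene model, the authors deposited raw counts and, in a second table, values read here as FPKM. In 91.4% of 10904 models with at least 200 counts in every library, dividing count by value gave a per-model factor times a per-library factor to within 2%. The submitters' processing notes name HISAT2 2.1.0 and DESeq2; counter, build and annotation were not given in the sources used here. All 9 columns matched a sample. Members and classes were chosen with earlier results of these data known. Levels are CPM of the column total.

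Tests used edgeR 4.0.16 in R 4.3.3: filterByExpr, TMM scaling, 1 quasi-likelihood model with a coefficient per group over all 9 libraries, two-sided, with Benjamini-Hochberg adjustment over 22638 models at 0.05. Standard errors come from the F statistic, and p-values reflect no more than the scatter among these libraries. Alternatives were DESeq2 1.42.0, limma 3.58.1 on log2(FPKM + 1) and log2(FPKM + 0.1), which understates changes of low models, other scalings and filters, a replicate block and leaving out each library.

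Models named were fixed by rule: the 2 of highest day 0 mean, the 2 of highest ratio of lowest day 0 to highest day 40 CPM, the 2 of lowest p in each direction with REO, 2 on each side of the limit, and the ends of the longest run. Soltu.DM.02G014010, Soltu.DM.09G024720, Soltu.DM.03G018450, Soltu.DM.03G018670 and Soltu.DM.03G000820 were added after their values were seen. Floors cover counting error only.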

Additional observations from a re-analysis of the deposited data

How the results depend on the processing

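Leaving out a library in turn gave 0 to 70 of the 140 called lower in control tubers at day 40 (53 with all libraries). With REO it gave 15 to 91 called lower (68). Over the whole table the numbers called lower ran from 0 to 588 (129) and from 20 to 729 (276). In the same runs the rule was met by 144 to 248 models (140), with 248 without day 0 replicate 1 and 221 without control day 40 replicate 2. Leaving out a library can only loosen the fold condition of the rule, so the direction of this change was largely fixed in advance. The median difference between REO and control ranged from -0.45 to 0.22, with -0.45 without REO replicate 3. DESeq2 called 112 and 115 models lower in the storage comparisons and 1 higher and 1 lower with REO, where edgeR called 0 and 0. Scaling to library size alone gave 35 lower in control storage, where the whole table went from 129 to 65. It moved the median log2 change of all models there from 0.04 to 0.15. For that comparison, fitting its 6 libraries alone called 0 of the 140 lower, and 0 of all 21987 tested models higher or lower. There 139 of the 140 had an unadjusted edgeR p under 0.05, on a contrast that the rule used, so nothing is read from it. DESeq2 on all libraries called 112 lower, beside 3.7% of all models it tested. A fold of 2 in the rule, a stricter limit, left 69 models. The cause of the moves in the numbers called and in the medians was not tested. Other alternatives kept these counts within 1.5 times, among them TMM-scaled CPM with 175 models, and 135 of the 140 met the fold in FPKM. The 65 models of the leading set of libraries became 60 with TMM scaling and 66 in FPKM, both tried after the data were seen.

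A replicate block gave 7 and 45 of the 140 lower in storage without and with REO. Over the whole table it called 7 and 134 models lower, where the fit without the block called 129 and 276. For REO against control at day 40 it gave 0 higher and 0 lower of the 140, beside 43 and 1 over the whole table. Replicate numbers need not pair the libraries: same-numbered libraries of different groups correlated at -0.56 to 0.33 after group means were removed, and REO replicate 3 correlated most with control day 40 replicate 2.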

Other observations

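The same limits applied to the 1322 models added by the submitters, of which 430 had a day 0 mean of at least 5 CPM, were met by 3. MLS_newGene_6653 was at 23.7, 24.2 and 15.3 CPM at day 0, at 5.56, 2.59 and 8.87 CPM in control tubers at day 40 and at 4.33, 8.54 and 5.63 CPM with REO. MLS_newGene_6654 was at 18.4, 18.04 and 13.8 CPM, then at 3.63, 2.003 and 7.40 CPM and at 4.23, 7.14 and 3.74 CPM. In both, control day 40 replicate 3 was the highest of the 6 day 40 libraries. In the last, MLS_newGene_6656, it was REO replicate 3: the model was at 5.80, 3.99 and 6.29 CPM at day 0, at 0.379, 0.445 and 1.22 CPM in control tubers at day 40 and at 0.205, 1.12 and 1.82 CPM with REO.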
